A study of Mus musculus with 12 samples.

Results

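The Toll-like receptors studied here are 9 mouse receptors of microbial and damaged-cell products, Tlr1, Tlr2, Tlr3, Tlr4, Tlr6, Tlr7, Tlr8, Tlr9 and Tlr13, and Myd88, the adaptor that carries the signal of most of them into the cell. They were taken by gene symbol, 1 entry each, from a table of 55415 entries. All 10 reached an FPKM of 1 in all 12 libraries, so all 10 were among the 13668 genes tested. FPKM is the count per kilobase of exon and per mega count of the library. The receptors were split by place of action into 4 of the cell surface (Tlr1, Tlr2, Tlr4, Tlr6) and 5 of endosomes (Tlr3, Tlr7, Tlr8, Tlr9, Tlr13).

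RNA came from bulk tissue of CT26 tumours, grown from a BALB/c mouse colon carcinoma line. The combination group received Complex 1 and radiation, the radiation group radiation alone, the Complex 1 group the compound alone, and the control group neither, with 3 libraries each. Complex 1 is named in the series title as a platinum complex activated by X-rays. No dose, time, age, sex or irradiated field was stated in the labels, and nothing there says whether libraries came from separate animals, so p-values measure the spread between these libraries, which may be technical. Of 6 epithelial markers fixed for checking the tissue label, Krt8, Krt19 and Epcam stayed below 1 FPKM in all libraries, Vil1 was at 0 in 6 libraries, Cdh1 reached 1.05 FPKM at most, and Krt18 ran from 2.81 to 7.72 FPKM.

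Toll-like receptors bind conserved products of microbes, and some also bind nucleic acids or proteins of dying host cells. Tlr2 pairs with Tlr1 or Tlr6 to sense bacterial lipopeptides, and Tlr4 senses bacterial lipopolysaccharide with the help of Cd14 and Ly96. In endosomes, Tlr3 binds double-stranded RNA, Tlr7 single-stranded RNA, Tlr9 DNA with unmethylated CpG, and Tlr13, which humans lack, bacterial ribosomal RNA. Human TLR8 binds RNA, and the role of mouse Tlr8 is less settled. The endosomal receptors need the chaperone Unc93b1 to leave the endoplasmic reticulum and are cut by lysosomal proteases. All of them except Tlr3 signal through Myd88, which leads to NF-kB and interferon regulatory factors; Tlr3 signals through Ticam1. Macrophages, dendritic cells and neutrophils carry most of them, and Tlr3 and Tlr4 are also found on stromal cells.

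Promoters were available for 8 of the 10 members, from 250 bases before to 50 after each gene's start (RefSeq, GRCm38.p6), and were searched on both strands for 3 motifs of transcription factors that act in this pathway or in myeloid cells. The windows of Tlr2 (chr3:83841559-83841858, minus strand), Tlr3 (chr8:45410331-45410630, minus), Tlr13 (chrX:106143025-106143324, plus), Tlr9 (chr9:106222348-106222647, plus) and Myd88 (chr9:119339969-119340268, minus) are shown because these members carry the contrasts described below. Capitals mark motif matches, and sequences run 5′ to 3′ on the gene's strand.
Tlr2: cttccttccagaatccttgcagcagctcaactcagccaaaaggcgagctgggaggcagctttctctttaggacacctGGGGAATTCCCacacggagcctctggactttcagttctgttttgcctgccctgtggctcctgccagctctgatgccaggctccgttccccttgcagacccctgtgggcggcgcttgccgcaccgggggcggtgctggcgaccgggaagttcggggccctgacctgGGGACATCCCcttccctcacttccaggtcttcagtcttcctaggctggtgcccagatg
Tlr3: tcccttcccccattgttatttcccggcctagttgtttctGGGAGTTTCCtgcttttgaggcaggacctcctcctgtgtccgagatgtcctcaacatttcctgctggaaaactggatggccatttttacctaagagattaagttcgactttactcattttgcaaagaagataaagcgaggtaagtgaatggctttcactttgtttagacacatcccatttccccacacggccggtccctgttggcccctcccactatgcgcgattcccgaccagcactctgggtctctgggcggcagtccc
Tlr13: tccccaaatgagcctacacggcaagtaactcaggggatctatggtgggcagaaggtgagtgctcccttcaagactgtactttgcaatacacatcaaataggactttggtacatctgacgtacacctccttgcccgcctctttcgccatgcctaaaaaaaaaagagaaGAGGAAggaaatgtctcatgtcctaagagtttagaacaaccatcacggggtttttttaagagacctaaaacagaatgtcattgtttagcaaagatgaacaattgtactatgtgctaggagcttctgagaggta
Tlr9: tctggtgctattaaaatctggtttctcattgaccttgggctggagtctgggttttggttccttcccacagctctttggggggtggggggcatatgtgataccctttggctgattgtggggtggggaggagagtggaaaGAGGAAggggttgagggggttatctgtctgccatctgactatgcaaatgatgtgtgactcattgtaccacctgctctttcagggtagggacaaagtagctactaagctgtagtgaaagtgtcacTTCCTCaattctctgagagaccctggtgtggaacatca
Myd88: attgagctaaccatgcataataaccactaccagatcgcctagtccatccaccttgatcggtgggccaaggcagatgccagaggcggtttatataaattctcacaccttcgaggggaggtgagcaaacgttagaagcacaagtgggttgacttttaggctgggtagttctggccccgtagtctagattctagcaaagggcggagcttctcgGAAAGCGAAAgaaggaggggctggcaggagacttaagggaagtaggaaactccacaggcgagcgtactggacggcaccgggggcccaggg
The NF-kB consensus, which 8.46% of 32851 promoters hold, matched at 2 places in Tlr2 and at 1 in Tlr3. The interferon-stimulated response element, searched as 2 copies of GAAA with any 2 bases between them and found in 3.44% of promoters, matched once in Myd88 and at 2 overlapping positions in 1 of the Tlr6 entries. The PU.1 core GAGGAA, in 28.3% of promoters, matched in Tlr13, Tlr8, 1 of the Tlr1 entries and at 2 places in Tlr9. These matches are letters in a window, not shown sites of binding.

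Total counts ran from 15.6 to 19.1 M (mega counts) a library, and members had between 83 counts (Tlr9, control replicate 3; exact 95% Poisson interval 66.1 to 103 counts, counting error only) and 1435 counts (Tlr3). Control replicate 2 stood apart, with Xist at 0.02 FPKM and 28 counts over 4 Y-linked genes, where the other 11 libraries had 9.20 to 14.2 FPKM and at most 1 count. Tlr7, Tlr8 and Tlr13 lie on the X chromosome, so their values without that library are given below. The summed T and NK cell markers were 14.8 FPKM in radiation replicate 2 and 41.6 FPKM in Complex 1 replicate 3, against 39.5 and 39.6 FPKM in the other radiation libraries and 14.7 and 19.6 FPKM in the other Complex 1 libraries. About 20.02% of the 31-base sequences of Tlr1 and 16.6% of those of Tlr6 occur in another locus, mostly in each other, so reads of this pair may have been split or dropped. For Myd88 the share was 8.93%, mostly with Acaa1a, for Tlr3 6.10%, for Tlr4 0.667%, and for the other 5 members 0.

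Most of the family was higher in the irradiated groups than in control tumours. In radiation tumours 8 of 10 members rose against control tumours, where 7.39% of all genes tested were called higher: 3 of 4 surface receptors, 4 of 5 endosomal receptors and Myd88. In combination tumours 9 of 10 rose, against a background of 11.9%, and Tlr4 was the member that did not pass. In Complex 1 tumours 2 of 10 rose, Tlr2 and Tlr13, against a background of 0.717%. No member fell, where 5.85% of all genes were called lower in radiation, 10% in combination and 0.0951% in Complex 1 tumours. Calls are Benjamini-Hochberg adjusted p under 0.05 over all 13668 genes, from edgeR's quasi-likelihood test, and changes are log2 fold changes ± SE. In bulk tissue, more cells of a type that carries a receptor and more RNA of that receptor per cell cannot be told apart.

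**Figure D1:**
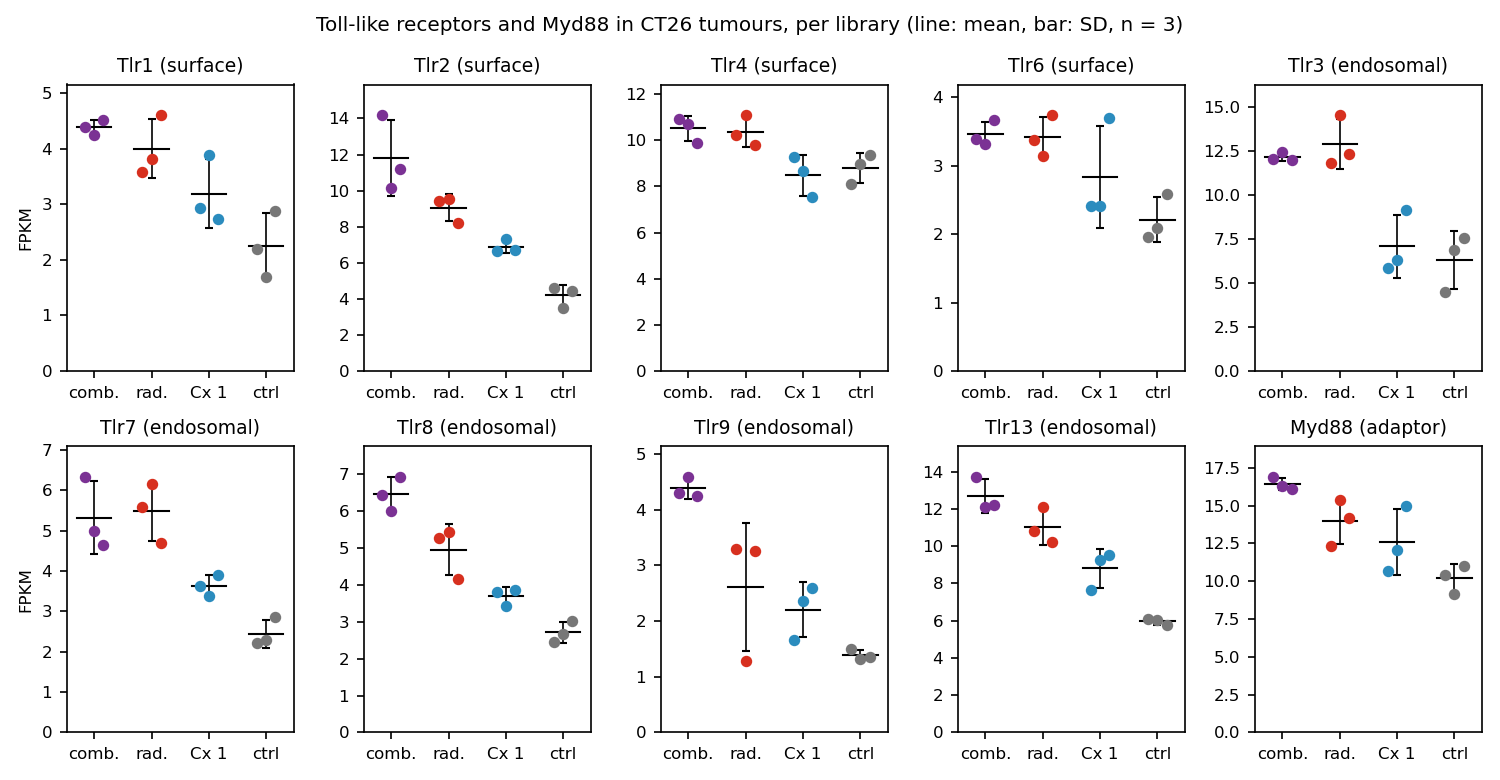
FPKM of each member in every library (points) with the group mean and SD, from left to right combination, radiation, Complex 1 and control, each panel on its own axis starting at 0. Control libraries are the lowest group for 9 of the 10 members by mean, and Tlr4 spans 7.53 to 11.1 FPKM over all libraries.

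Tlr2, the partner shared by the lipopeptide-sensing pairs (ENSMUSG00000027995, mm39 chromosome 3, 83743579 to 83749074, minus strand), had 14.2, 10.1 and 11.2 FPKM in combination tumours, 9.44, 9.51 and 8.21 FPKM in radiation tumours, 6.64, 7.32 and 6.71 FPKM in Complex 1 tumours and 4.60, 3.51 and 4.44 FPKM in control tumours. The 4 groups did not overlap, and their order was combination, radiation, Complex 1, control. Tlr2 rose by 1.45 ± 0.13 in combination tumours (adjusted p = 5.9e-05), by 1.09 ± 0.13 in radiation tumours (adjusted p = 0.00072) and by 0.69 ± 0.14 in Complex 1 tumours (adjusted p = 0.036), each against control tumours. Its promoter, shown above, is the one with NF-kB consensus matches at 2 places.

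The partners of Tlr2 lie side by side on chromosome 5 (Tlr1, 65082022 to 65090906; Tlr6, 65109374 to 65117440; both minus strand). Tlr1 had 4.39, 4.25 and 4.52 FPKM in combination tumours, 3.58, 3.82 and 4.60 FPKM in radiation tumours, 2.93, 3.89 and 2.74 FPKM in Complex 1 tumours and 2.20, 1.69 and 2.87 FPKM in control tumours. Combination and radiation libraries all lay above control, while Complex 1 overlapped control. Tlr1 rose by 0.92 ± 0.18 in combination tumours (adjusted p = 0.0033) and by 0.80 ± 0.18 in radiation tumours (adjusted p = 0.013), against control tumours. Without radiation replicate 3 the radiation change was 0.69 with an edgeR adjusted p of 0.051.

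Tlr6 had 3.39, 3.32 and 3.67 FPKM in combination tumours, 3.37, 3.14 and 3.74 FPKM in radiation tumours, 2.41, 2.41 and 3.70 FPKM in Complex 1 tumours and 1.96, 2.09 and 2.59 FPKM in control tumours. Combination and radiation libraries lay above control in all cases, and Complex 1 replicate 3 lay among them. The change against control was 0.60 ± 0.17 in both combination (adjusted p = 0.025) and radiation tumours (adjusted p = 0.036). Both calls depended on single libraries. In combination tumours the call was lost without combination replicate 1 (0.61, adjusted p = 0.055), 2 (0.63, 0.050) or 3 (0.56, 0.077), or without control replicate 1 (0.52, 0.092) or 2 (0.56, 0.083). In radiation tumours it was lost without radiation replicate 1 (0.61, 0.088) or 3 (0.53, 0.11), control replicate 1 (0.52, 0.13) or 2 (0.56, 0.11), or combination replicate 2 (0.60, 0.051).

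Tlr4, the lipopolysaccharide receptor (ENSMUSG00000039005, chromosome 4, 66745821 to 66848521, plus strand), varied least over the 12 libraries, with a root mean square deviation of 0.15 about its own mean log2 level, against 0.24 to 0.50 for the other 9 members. It had 10.9, 10.7 and 9.89 FPKM in combination tumours, 10.2, 11.1 and 9.80 FPKM in radiation tumours, 9.26, 8.65 and 7.53 FPKM in Complex 1 tumours and 8.10, 8.99 and 9.37 FPKM in control tumours. Combination and radiation libraries lay just above the control libraries, and Complex 1 libraries overlapped them. Its change was 0.20 ± 0.09 in combination (adjusted p = 0.11), 0.21 ± 0.09 in radiation (adjusted p = 0.13) and -0.08 ± 0.09 in Complex 1 tumours (adjusted p = 0.75), against control tumours. Tlr4 made up 14.8 ± 0.743% of the FPKM summed over the 9 receptors in combination tumours, 16.2 ± 0.259% in radiation tumours, 18.2 ± 3.01% in Complex 1 tumours and 24.3 ± 0.922% in control tumours (SD, n = 3 each). For Tlr2 the shares in the same order of groups were 16.5 ± 2.0%, 14.2 ± 0.717%, 14.7 ± 1.10% and 11.6 ± 1.94%. The lowest control share of Tlr4, 23.5%, was above the highest share in any treated library, 21.2%.

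Among the endosomal receptors, Tlr3, which binds double-stranded RNA (ENSMUSG00000031639, chromosome 8, 45848702 to 45864117, minus strand), divided the groups by radiation. It had 12.1, 12.4 and 12.02 FPKM in combination tumours, 11.8, 14.5 and 12.4 FPKM in radiation tumours, 5.83, 6.29 and 9.14 FPKM in Complex 1 tumours and 4.47, 6.87 and 7.57 FPKM in control tumours. The 6 libraries of irradiated groups lay above all 6 others, and within each of these sets the groups overlapped. Tlr3 rose by 0.90 ± 0.18 in combination tumours (adjusted p = 0.0039) and by 1.01 ± 0.18 in radiation tumours (adjusted p = 0.0044), against 0.14 ± 0.19 in Complex 1 tumours (adjusted p = 0.81), all relative to control.

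Tlr7 and Tlr8, neighbours on the X chromosome (166087925 to 166113554 and 166025692 to 166047325, minus strand), are related receptors for RNA. Tlr7 had 6.34, 4.99 and 4.64 FPKM in combination tumours, 5.60, 6.15 and 4.69 FPKM in radiation tumours, 3.62, 3.38 and 3.91 FPKM in Complex 1 tumours and 2.21, 2.29 and 2.85 FPKM in control tumours. Combination and radiation libraries overlapped each other and lay above Complex 1, which lay above control. Tlr7 rose by 1.07 ± 0.15 in combination tumours (adjusted p = 0.0004) and by 1.14 ± 0.15 in radiation tumours (adjusted p = 0.001). In Complex 1 tumours the change was 0.54 ± 0.15 (adjusted p = 0.13).

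Tlr8 had 6.44, 6.0 and 6.93 FPKM in combination tumours, 5.26, 5.44 and 4.17 FPKM in radiation tumours, 3.80, 3.43 and 3.87 FPKM in Complex 1 tumours and 2.45, 2.68 and 3.02 FPKM in control tumours. The 4 groups did not overlap and stood in the same order as for Tlr2. It rose by 1.20 ± 0.12 in combination tumours (adjusted p = 8.8e-05) and by 0.84 ± 0.12 in radiation tumours (adjusted p = 0.0017), and its change in Complex 1 tumours was 0.42 ± 0.13 (adjusted p = 0.17).

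Tlr13, the mouse receptor for bacterial ribosomal RNA (ENSMUSG00000033777, X chromosome, 105186810 to 105204099, plus strand), had 13.7, 12.1 and 12.2 FPKM in combination tumours, 10.8, 12.1 and 10.2 FPKM in radiation tumours, 7.62, 9.28 and 9.52 FPKM in Complex 1 tumours and 6.10, 6.05 and 5.76 FPKM in control tumours. The 3 treated groups all lay above control, and combination lay just above radiation. Tlr13 rose by 1.04 ± 0.10 in combination tumours (adjusted p = 5.9e-05), by 0.86 ± 0.10 in radiation tumours (adjusted p = 0.00042) and by 0.53 ± 0.10 in Complex 1 tumours (adjusted p = 0.024). Without control replicate 2, the library with low Xist, the combination changes were 1.03 for Tlr7, 1.20 for Tlr8 and 1.05 for Tlr13, with adjusted p of 0.0032, 0.00093 and 0.00055. The radiation changes without it were 1.09, 0.83 and 0.87 in the same order of genes, with adjusted p of 0.0065, 0.0086 and 0.0031.

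Tlr9, the receptor for CpG DNA (ENSMUSG00000045322, chromosome 9, 106099797 to 106104082, plus strand), had the largest combination change of the family. It had 4.30, 4.59 and 4.25 FPKM in combination tumours, 3.29, 1.29 and 3.26 FPKM in radiation tumours, 1.65, 2.36 and 2.60 FPKM in Complex 1 tumours and 1.49, 1.31 and 1.35 FPKM in control tumours. All combination libraries lay above every other library, while radiation replicate 2 lay below the whole control group. Tlr9 rose by 1.62 ± 0.28 in combination tumours (adjusted p = 0.0016), and its change in radiation tumours was 0.89 ± 0.29 (adjusted p = 0.057). Without radiation replicate 2 the radiation change was 1.22 (adjusted p = 0.0022). That library had 85 Tlr9 counts (exact 95% Poisson interval 67.9 to 105), against 205 and 211 in the other radiation libraries, and also had the lowest T and NK cell marker sum of its group. The part of that cell fraction in the Tlr9 value was not tested. Of the plasmacytoid dendritic cell markers, whose cells carry Tlr9, Siglech, Ccr9 and Klk1 were below 1 FPKM in all libraries. Cox6a2 ran from 0.09 to 7.38 FPKM and Bst2, which other cells also express, from 219 to 582 FPKM. Cox6a2 and Bst2 went opposite ways. Cox6a2 had 0.09, 0.44 and 0.62 FPKM in combination and 7.38, 1.69 and 1.41 FPKM in control tumours. These values rest on few counts, 1, 5 and 8 in combination and 92, 22 and 17 in control tumours. Bst2 had 567, 582 and 543 FPKM in combination and 219, 296 and 257 FPKM in control tumours. The 6 B cell markers, none of which was tested, summed to 0.88 to 1.51 FPKM in combination, 0.63 to 0.83 FPKM in radiation, 0.71 to 3.56 FPKM in Complex 1 and 0.59 to 0.81 FPKM in control tumours. Cd79a reached 1.64 FPKM and Cd79b 1.03 FPKM at most, Ms4a1 was at 0 in 4 libraries and Blk in 7, and the combination sums lay above the control sums, with no overlap. The part of these cells in the Tlr9 values was not tested.

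Myd88 (ENSMUSG00000032508, chromosome 9, 119165000 to 119170477, minus strand) was the member with the highest mean in every group. It had 16.9, 16.3 and 16.1 FPKM in combination tumours, 12.3, 15.4 and 14.2 FPKM in radiation tumours, 10.7, 12.1 and 15.0 FPKM in Complex 1 tumours and 10.4, 9.16 and 10.98 FPKM in control tumours. Combination lay above all other libraries, radiation lay above control, and Complex 1 overlapped both of its neighbours. Myd88 rose by 0.64 ± 0.12 in combination tumours (adjusted p = 0.0024) and by 0.43 ± 0.12 in radiation tumours (adjusted p = 0.034). The radiation call was lost without radiation replicate 2 (0.35, adjusted p = 0.096) or 3 (0.41, 0.084), control replicate 1 (0.45, 0.079) or 2 (0.36, 0.12), or combination replicate 2 (0.43, 0.051). Myd88 overlaps Acaa1a on the opposite strand, which had 464 to 673 counts. Because the strand setting of the counting is not given, reads of this pair cannot be told apart. Acaa1a changed by 0.31 ± 0.10 in combination tumours (adjusted p = 0.048) and by 0.20 ± 0.10 in radiation tumours (adjusted p = 0.22).

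**Figure D2:**
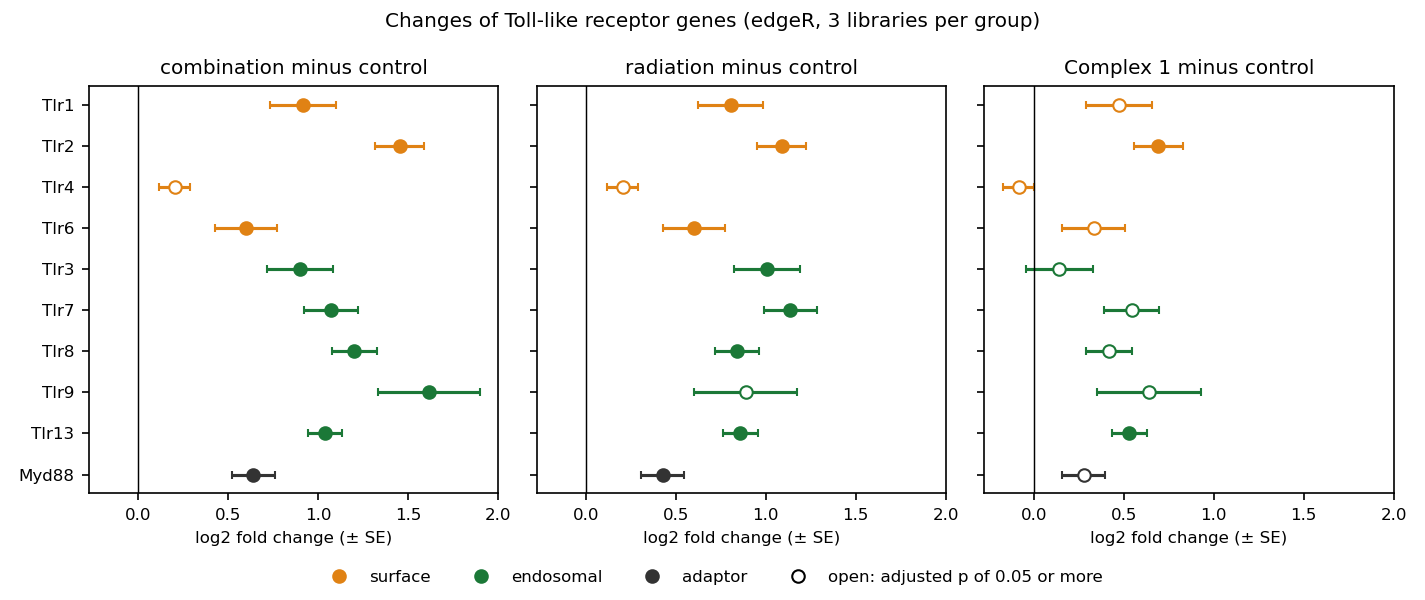
Log2 fold change (edgeR, with its SE as bar) of each member in combination, radiation and Complex 1 tumours against control, from left to right, coloured by class and filled where the adjusted p is under 0.05. Surface receptors run from -0.08 (Tlr4, Complex 1 against control) to 1.45 (Tlr2, combination against control), and all 5 endosomal receptors are filled in the combination panel, 4 in the radiation panel and 1 in the Complex 1 panel.

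The calls for Complex 1 alone were fragile. Tlr2 and Tlr13 both lost the call when any control library or Complex 1 replicate 2 or 3 was left out. Tlr2 then ran from 0.58 (without control replicate 2, adjusted p = 0.19) over 0.66 (Complex 1 replicate 2, 0.14), 0.71 (Complex 1 replicate 3, 0.086) and 0.73 (control replicate 3, 0.073) to 0.77 (control replicate 1, 0.057). Tlr13 ran from 0.47 (Complex 1 replicate 3, 0.095) over 0.50 (Complex 1 replicate 2, 0.11; control replicate 3, 0.078) and 0.54 (control replicate 2, 0.11) to 0.55 (control replicate 1, 0.065). Tlr2 also lost it without combination replicate 3 (0.69, 0.053) or radiation replicate 1 (0.69, 0.057), although neither library is in the comparison, since all 12 share 1 estimate of spread. In FPKM, 5 of 10 members lay above control with no overlap, against 11.4% of all genes. The corresponding counts were 9 of 10 for radiation (background 17.9%) and 10 of 10 for combination (background 23.9%).

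Combination and radiation tumours differ by the compound. No member was called between combination and radiation tumours by edgeR, against a background of 0.615% called higher and 0.0366% lower, and none by DESeq2. At an unadjusted p under 0.05 there were 3: Tlr2 (0.37 ± 0.13), Tlr8 (0.36 ± 0.12) and Tlr9 (0.73 ± 0.27). Over all 13668 genes tested, 1411 passed the same edgeR cut-off in either direction. For these 3 members the combination libraries lay above the radiation libraries, as they did for Tlr13 and Myd88. This makes 5 of 10 members against 10.5% of all genes. For Tlr13 the gap was within counting error, at 12.11 FPKM in combination replicate 2 and 12.1 FPKM in radiation replicate 2. Their exact 95% Poisson intervals were 11.3 to 12.9 and 11.4 to 12.9 FPKM. Without radiation replicate 2 the Tlr9 difference was 0.40 (adjusted p = 0.60). The change of Tlr4 and Tlr6 was near 0 and changed sign with the scaling.

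Combination and Complex 1 tumours differ by radiation, and 6 of 10 members were higher in combination tumours, against a background of 4.73% called higher and 5.25% lower: all 5 endosomal receptors and, of the 4 surface receptors, Tlr2. Tlr2 rose by 0.76 ± 0.13 (adjusted p = 0.0042), Tlr8 by 0.78 ± 0.12 (0.0026) and Tlr13 by 0.51 ± 0.10 (0.0065), in combination relative to Complex 1 tumours. These 3 kept their calls when any single library was left out. Tlr3 rose by 0.76 ± 0.18 (adjusted p = 0.020), Tlr7 by 0.53 ± 0.15 (0.036) and Tlr9 by 0.97 ± 0.27 (0.039), but these calls depended on single libraries. Tlr3 lost it without any combination library (0.77, 0.75 and 0.78; adjusted p = 0.059, 0.056 and 0.051) or Complex 1 replicate 1 (0.64, 0.089) or 2 (0.67, 0.088). Tlr7 lost it without combination replicate 1 (0.38, 0.15) or 2 (0.58, 0.062) or Complex 1 replicate 1 (0.53, 0.10) or 2 (0.47, 0.13).

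Tlr9 lost the same call without any combination library (0.99, 0.95 and 1.01; adjusted p = 0.094, 0.096 and 0.081), Complex 1 replicate 1 (0.80, 0.15) or 2 (1.02, 0.099), or control replicate 2 (0.97, 0.053). Tlr4 (0.29 ± 0.09, adjusted p = 0.051), Myd88 (0.36 ± 0.12, 0.070), Tlr1 (0.44 ± 0.18, 0.13) and Tlr6 (0.26 ± 0.17, 0.36) did not pass in combination against Complex 1 tumours. Without Complex 1 replicate 3, Tlr6 (0.51, 0.037) and Myd88 (0.52, 0.0074) were called, and Tlr4 was called without Complex 1 replicate 1 (0.36, 0.043), radiation replicate 2 (0.29, 0.048) or control replicate 1 (0.29, 0.047). Groups did not overlap for 9 of 10 members, against 16.5% of all genes. The interaction, the difference between the compound's change with and without radiation, was called for 0 members and for 0 of 13668 genes by edgeR (601 genes at an unadjusted p under 0.05; DESeq2 called 6 genes and 0 members). Tlr7 (-0.61 ± 0.21) and Tlr13 (-0.35 ± 0.14) were the 2 members at an unadjusted p under 0.05.

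Set side by side, the endosomal class moved by a larger median than the surface class in each comparison with control, without a test, since members are not replicates. The median change was 1.07 for endosomal and 0.76 for surface receptors in combination tumours, 0.89 and 0.70 in radiation tumours, and 0.53 and 0.40 in Complex 1 tumours, while the median over all genes lay between -0.01 and 0.01. In Complex 1 tumours this order was not kept in every fit with 1 library left out. The endosomal median then ran from 0.47 to 0.54 and the surface median from 0.30 to 0.57. Endosomal receptors summed to 41.0 ± 1.61 FPKM in combination tumours, 37.0 ± 2.43 in radiation tumours, 25.4 ± 3.31 in Complex 1 tumours and 18.8 ± 1.94 in control tumours (SD, n = 3 each). Surface receptors summed to 30.2 ± 2.39, 26.8 ± 0.637, 21.4 ± 0.806 and 17.5 ± 1.59 FPKM in the same order of groups. The ratio of the sums was 1.36 ± 0.055 in combination, 1.38 ± 0.059 in radiation, 1.19 ± 0.186 in Complex 1 and 1.08 ± 0.094 in control tumours. Irradiated groups lay at 1.30 to 1.43 and control at 0.992 to 1.18, with no overlap. Complex 1 replicate 3 at 1.40 lay among the irradiated libraries. Tlr4, which changed least, had means of 8.82 FPKM in control, 10.5 in combination and 10.4 in radiation tumours, within these surface sums. In combination tumours Tlr1, Tlr2 and Tlr6 changed by 0.92, 1.45 and 0.60, and the endosomal receptors by 0.90 to 1.62. In radiation tumours these were 0.80, 1.09 and 0.60, and 0.84 to 1.14. The part of Tlr4 in the class difference was not tested.

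**Figure D3:**
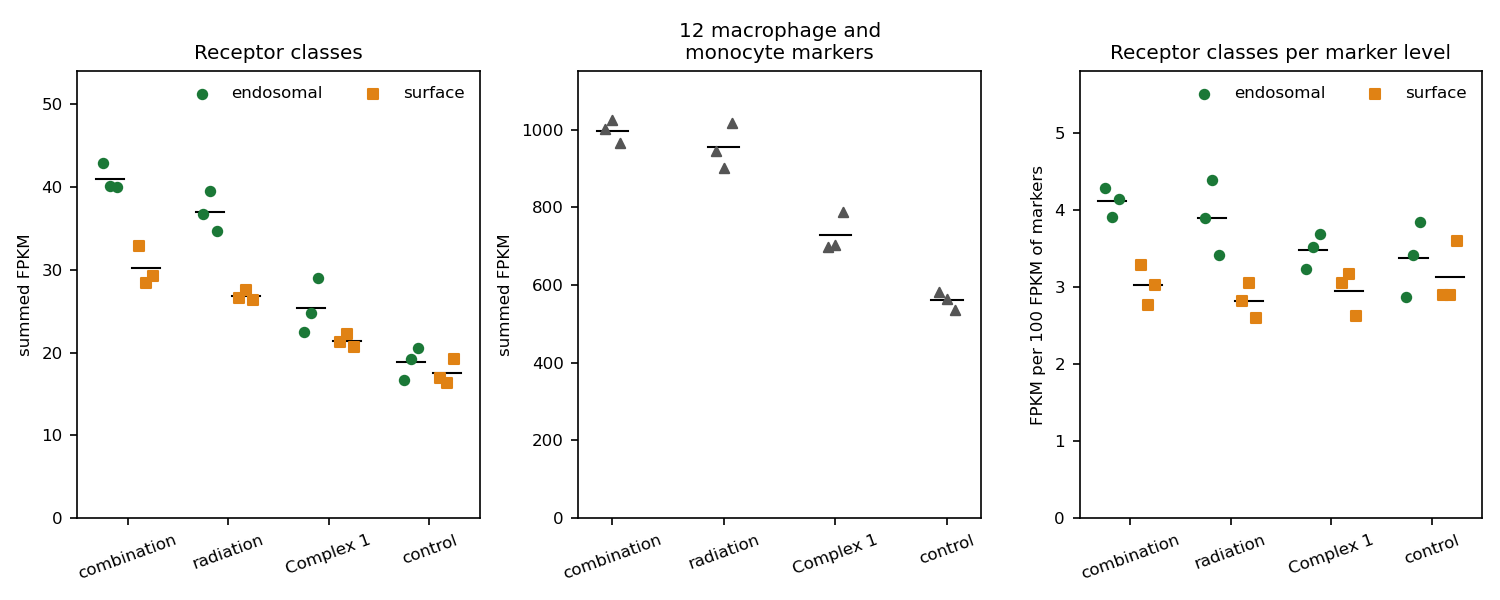
Per-library values (points, with a line at the group mean), with combination, radiation, Complex 1 and control from left to right and axes starting at 0: summed FPKM of endosomal and surface receptors, summed FPKM of the 12 macrophage and monocyte markers, and receptor FPKM per 100 FPKM of those markers. Receptor and marker sums both stand highest in combination, at 40.04 to 42.9 FPKM for endosomal receptors, and lowest in control, at 16.7 to 20.6 FPKM. Per marker level the groups overlap for surface receptors. For endosomal receptors per marker level, radiation and Complex 1 overlap control and combination lies above it.

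Macrophage markers moved with the receptors. The 12 macrophage and monocyte markers summed to 967 to 1025 FPKM in combination tumours, 902 to 1017 in radiation tumours, 697 to 788 in Complex 1 tumours and 536 to 583 in control tumours, and none was at 0. Of the 12, 10 were called higher in combination (background 11.9%), 8 in radiation (7.39%) and 1 in Complex 1 tumours (0.717%), against control. Per 100 FPKM of these markers, endosomal receptors held 4.11 ± 0.186 FPKM in combination, 3.89 ± 0.486 in radiation, 3.48 ± 0.228 in Complex 1 and 3.37 ± 0.485 in control tumours. Endosomal values overlapped control in radiation (3.41 to 4.38) and Complex 1 tumours (3.23 to 3.68), where control ran from 2.87 to 3.84. Combination, at 3.91 to 4.28, lay above control. Surface receptors held 3.03 ± 0.258, 2.82 ± 0.232, 2.95 ± 0.287 and 3.13 ± 0.407 FPKM in the same order, and these groups overlapped. The endosomal overlap of radiation with control depended on the markers used. Per 100 FPKM of Adgre1, Csf1r and Cd68 alone, endosomal receptors held 25.6 to 27.7 FPKM in radiation and 25.7 to 28.0 in combination tumours. Both lay above control (19.3 to 24.9), while Complex 1 (24.1 to 24.8) overlapped it. Per 1000 FPKM of the 12 markers, Tlr9 held 4.30 to 4.48 FPKM in combination tumours, above its 1.43 to 3.48 in radiation, 2.37 to 3.36 in Complex 1 and 2.33 to 2.56 in control tumours. Tlr4 held 10.5 ± 0.358 FPKM in combination, 10.9 ± 1.33 in radiation, 11.7 ± 1.94 in Complex 1 and 15.8 ± 1.80 in control tumours, with every treated library below control. The 6 fibroblast markers, none at 0, summed to 283 to 299.6 FPKM in combination, 243 to 259 FPKM in radiation, 217 to 274 FPKM in Complex 1 and 196 to 229 FPKM in control tumours, so that both irradiated groups lay above control. Of these 6, 2 were called higher in combination, 1 in radiation and none in Complex 1 tumours, against control (edgeR). At an unadjusted p under 0.05 in either direction there were 4 in Complex 1 tumours, where 1708 of all 13668 genes passed. The 7 conventional dendritic cell markers summed to 5.16 to 6.73 FPKM in combination, 5.64 to 7.81 in radiation and 5.15 to 5.73 in Complex 1 tumours. All overlapped control, at 3.95 to 6.06 FPKM. Only 1 of the 7 was tested, and it was not called against control. The parts of macrophage, fibroblast and dendritic cell content in the receptor changes were not tested.

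Neutrophil markers were highest in the groups given the compound. The 8 markers summed to 252 to 419 FPKM in combination tumours, 10.9 to 37.8 in radiation tumours, 95.5 to 203 in Complex 1 tumours and 11.9 to 21.3 in control tumours, with Ly6g at 0 in 6 libraries and Retnlg in 2. Of 7 tested, 7 were called higher in combination (background 11.9%), 1 in radiation (7.39%) and 5 in Complex 1 tumours (0.717%), against control, and 5 in combination against radiation (0.615%). Tlr2, which neutrophils also carry, was the one surface receptor called in Complex 1 tumours; the part of neutrophils in it was not tested. The ratio of Tlr2 to the sum of Tlr1 and Tlr6 was 1.51 ± 0.272 in combination, 1.24 ± 0.218 in radiation, 1.15 ± 0.101 in Complex 1 and 0.949 ± 0.147 in control tumours. Combination libraries (1.34 to 1.82) lay above Complex 1 (1.04 to 1.24) and control libraries (0.813 to 1.11), which overlapped each other. Radiation libraries (0.984 to 1.37) overlapped every other group.

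The order of the levels differed between groups, where neighbours are said to separate if their library values do not overlap. In control tumours Myd88 and Tlr4 were highest and did not separate, followed by Tlr3 and Tlr13, which did not separate, then Tlr2, then Tlr8, Tlr7, Tlr1 and Tlr6 without separation between neighbours, then Tlr9. In combination tumours Myd88 stood alone, and Tlr13, Tlr3, Tlr2 and Tlr4 did not separate, with means of 12.7, 12.2, 11.8 and 10.5 FPKM. Tlr8 and Tlr7 followed, then Tlr1 and Tlr9, then Tlr6. Tlr9 thus stood last in control tumours at 1.38 ± 0.0945 FPKM and level with Tlr1 in combination tumours at 4.38 ± 0.184 FPKM. The other mouse receptors were low: Tlr5 had 0.25 to 0.53 FPKM, Tlr11 0.09 to 0.40 FPKM and Tlr12 0.27 to 1.21 FPKM. Tlr12 was the one of these 3 that was tested, and it was called in no comparison.

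Genes around the receptors were counted by list, to be read against all genes, of which 11.9% were called higher and 10% lower in combination, 7.39% higher and 5.85% lower in radiation and 0.717% higher in Complex 1 tumours, against control. Of 7 tested co-receptors and chaperones, 1 rose and 1 fell in combination and also in radiation tumours, which is near the background, and the list medians were 0.12 and -0.0044. Unc93b1, which carries the endosomal receptors out of the endoplasmic reticulum, rose to a mean of 40.8 FPKM in combination tumours, against 18.8 FPKM in control tumours (1.07 ± 0.16, adjusted p = 0.00054), and by 0.81 ± 0.15 in radiation tumours (adjusted p = 0.0055). Hsp90b1, the chaperone that folds most of the family, fell by 0.38 ± 0.07 in combination tumours (adjusted p = 0.0015) and by 0.28 ± 0.07 in radiation tumours (adjusted p = 0.016). Cd14, the co-receptor of Tlr4, changed by 0.50 ± 0.19 in combination (adjusted p = 0.074) and by -0.19 ± 0.19 in radiation tumours (adjusted p = 0.55).

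Of 11 tested genes of endosomal processing and nucleic acid handling, 8 rose in combination (background 11.9%) and 6 in radiation tumours (7.39%), against control. In each of these groups 1 fell, and 1 gene lower in 11 is near the background of 10% and 5.85%. Lgmn, a lysosomal protease, had a mean of 201 FPKM in combination, 190 FPKM in radiation and 111 FPKM in control tumours (0.81 ± 0.08 in combination, adjusted p = 8.8e-05). The lysosomal nucleases Pld3 and Pld4 rose by 0.60 ± 0.07 and 1.10 ± 0.12 in combination tumours (adjusted p = 0.00019 and 0.00012). The median over the list was 0.81 in combination and 0.60 in radiation tumours, near 0 over all genes. The falling gene was Ctsl (-0.34 ± 0.11, adjusted p = 0.039 in combination).

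Of 18 tested adaptors and kinases, 7 rose in combination (background 11.9%) and 2 in radiation tumours (background 7.39%), with none lower. The 2 in radiation are near the background, and the list medians were 0.0049 and 0.07. Pik3ap1, an adaptor of PI3K signalling downstream of these receptors, rose by 1.43 ± 0.17 in combination (adjusted p = 0.00019) and 1.04 ± 0.17 in radiation tumours (adjusted p = 0.003). Ikbke, a kinase that acts on interferon regulatory factors, rose by 0.91 ± 0.13 and 0.55 ± 0.13 in the same groups (adjusted p = 0.00049 and 0.017), and Ikbkb by 0.28 ± 0.07 in combination tumours (adjusted p = 0.0088). Of 7 transcription factors, Irf5, Irf7 and Irf8 rose in both irradiated groups and the other 4 did not pass. Irf7, the interferon regulatory factor of the Tlr7 and Tlr9 pathway, had a mean of 156 FPKM in combination, 142 FPKM in radiation and 45.1 FPKM in control tumours (1.74 ± 0.30, adjusted p = 0.0016 in combination).

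Of 13 negative regulators, 8 rose and 1 fell in combination (background 11.9% higher and 10% lower) and 4 rose in radiation tumours (background 7.39%), with list medians of 0.84 and 0.35. Inpp5d, a lipid phosphatase, rose by 0.91 ± 0.10 in combination tumours (adjusted p = 0.00013), Ly86, the partner of Cd180, by 0.78 ± 0.11 (0.00052), and Nfkbia, the inhibitor of NF-kB that NF-kB itself induces, by 1.05 ± 0.18 (0.0014). Trafd1, also a negative regulator, rose by 0.91 ± 0.18 in radiation tumours (adjusted p = 0.0068). Of 14 tested induced genes, 13 rose in combination (background 11.9%) and 3 in radiation tumours (7.39%), and 4 rose in combination against radiation tumours (0.615%). Cxcl2, a neutrophil chemokine, had a mean of 24.1 FPKM in combination and 1.14 FPKM in control tumours (4.34 ± 0.47, adjusted p = 0.00011), and Cxcl1 144 and 8.33 FPKM (4.06 ± 0.53, 0.00029). Il1b had 57.0 FPKM in combination and 6.87 FPKM in control tumours (3.01 ± 0.39, adjusted p = 0.00026). Cxcl10, an interferon-induced chemokine, rose by 2.01 ± 0.30 in radiation tumours (adjusted p = 0.0016), as did Cd80 (0.62 ± 0.11, 0.0045) and Cd86 (0.70 ± 0.13, 0.0048). In Complex 1 tumours 2 of the 14 rose, Cxcl2 and Il1b. Neutrophil marker sums, given above, lay above control in combination and Complex 1 tumours and overlapped control in radiation tumours, and their part in the changes of Cxcl2, Cxcl1 and Il1b was not tested.

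**Figure D4:**
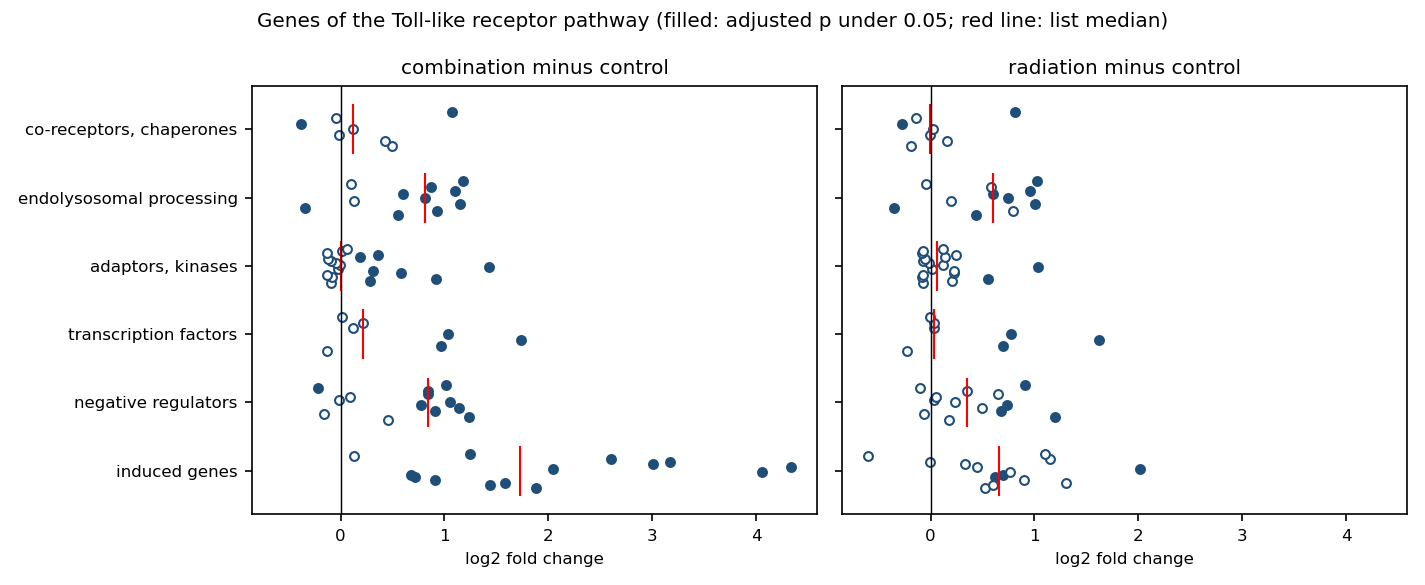
Log2 fold change of every tested gene of 6 pathway lists (points, filled for adjusted p under 0.05; a red line marks the list's median), in combination (left) and radiation tumours (right) against control, with 1 row of points for each list. Induced genes reach 4.34 (Cxcl2) in combination tumours, while co-receptors and chaperones scatter on both sides of 0.

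The genes whose pattern over the 12 libraries was nearest to each member were found by the root mean square difference of centred log2 levels, as a description with no test. Tlr3 was nearest to Gm20559 (0.09), Samd9l (0.09) and Oas1g (0.09), where the spread of Tlr3 about its own mean was 0.47. Tlr13 was nearest to Ncf1 (0.08), Cd48 (0.09) and Cd53 (0.10), and Tlr7 to Gm14548 (0.09), Rab32 (0.13) and Ncf1 (0.13). For Tlr9 they were Slc11a1 (0.11), Ctsw (0.11) and Trpm2 (0.12), and for Tlr2 Cd300lf (0.13), Lilrb4a (0.17) and Lilr4b (0.17). Near Tlr8 were A4galt (0.12) and Rps6ka1 (0.13). Tlr1 was nearest to Gm10252, Cotl1 and Nrros (0.11 to 0.12), Tlr6 to Agtrap, Plgrkt and Apobec3 (0.07 to 0.09), Tlr4 to Ankrd28, Slc35f5 and Ogfod2 (0.06 to 0.07) and Myd88 to Iqgap2, Bmp1 and Acvrl1 (0.09 in each). The 12 points share the 4 groups.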

How the data were processed

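Total RNA of CT26 tumour tissue was sequenced in 12 libraries, 4 groups of 3. The tools named, per the submitters' processing notes, are STAR 2.5.3a, HTSeq 2.0.1 and DESeq2, with build mm39. Their roles, the strand setting and filters are not stated there. Per the labels, a NEBNext Ultra RNA kit made the libraries. The authors deposited raw counts for 55415 entries, and FPKM, which recomputation from those counts and exonic lengths matched to 0.005 FPKM. Entries lacking a symbol (1492; 0.0579% to 0.0706% of counts) were left out.

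Tests covered the 13668 genes reaching 1 FPKM in 3 or more libraries. After TMM scaling, edgeR 4.0.16 (R 4.3.3) fitted a mean per group to all 12 libraries. Alternatives were median-ratio scaling, library totals, DESeq2 1.42.0, limma 3.58.1 on log2(FPKM + 1) and log2(FPKM + 0.1), no filter, robust estimation, a replicate block, the groups compared alone, and leaving out each library.

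The members, lists and tests were chosen with earlier results of these data known. Named genes are the members, the other 3 mouse receptors, the 3 genes of each list with the smallest p against control in radiation and in combination tumours, and the 3 nearest genes of each member, of which 1 for Tlr8 is not reported here. Ctsl and Acaa1a were named after their values were seen. Shared sequence (31-base words) was computed from GENCODE M21 transcripts (GRCm38). The code was tested on simulated counts.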

Additional observations from a re-analysis of the deposited data

How the results depend on the processing

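Counts of 83 to 1435 per library limit the precision of the low members, above all Tlr9. With 3 libraries a group, leaving out 1 library gave 5 to 8 members and 865 to 2014 genes called in radiation against control, 0 to 2 and 4 to 236 in Complex 1 against control, 8 to 9 and 2076 to 3176 in combination against control, 0 and 25 to 100 in combination against radiation, and 3 to 8 and 582 to 1884 in combination against Complex 1. The surface median then ran from 0.60 to 0.87 in radiation, 0.30 to 0.57 in Complex 1 and 0.65 to 0.92 in combination against control. The endosomal median ran from 0.87 to 0.95, 0.47 to 0.54 and 0.97 to 1.19 in the same order. In the interaction the endosomal median ran from -0.37 to -0.018. Changes that turned sign were Tlr3 in Complex 1 against control (-0.090 to 0.29), Tlr4 (-0.040 to 0.048), Tlr6 (-0.061 to 0.069) and Tlr7 (-0.21 to 0.032) in combination against radiation, and Tlr8 (-0.17 to 0.014), Tlr9 (-0.24 to 0.29) and Myd88 (-0.17 to 0.089) in the interaction. In combination against radiation, Tlr4 and Tlr6 were 0.019 and 0.019 with library totals, 0.019 and 0.016 with limma on log2(FPKM + 1), and 0.020 and 0.020 on log2(FPKM + 0.1). Complex 1 against control gave 111 genes and 2 members, but 326 genes by DESeq2, 803 genes and 4 members with no filter, and 45 genes and 0 members with only the groups compared. Combination against radiation gave 89 genes and 0 members, but 187 genes by DESeq2 and 529 genes and 1 member (Tlr9) with no filter. Combination against Complex 1 gave 1364 genes, and 2285 with no filter. Single members gained a call in combination against Complex 1: Tlr4 (0.28 to 0.31, adjusted p 0.030 to 0.048) with median-ratio scaling, library totals, DESeq2, no filter and robust estimation, and Myd88 with DESeq2 (0.37, 0.038) and no filter (0.36, 0.014). Tlr9 lost its call there with limma on log2(FPKM + 0.1) (0.98, 0.065). Against control, Tlr9 gained a call in radiation by DESeq2 (0.89, 0.014) and with no filter (0.86, 5.1e-05) and in Complex 1 with no filter (0.62, 0.029), and Tlr7 in Complex 1 by DESeq2 (0.54, 0.047) and with no filter (0.52, 0.0099). With only the groups compared, Tlr2 (0.69, 0.075) and Tlr13 (0.53, 0.090) lost the call in Complex 1. The interaction gave 0 genes, 6 by DESeq2 and 163 with no filter. The cause of these differences was not tested. With library totals, 1163 genes were higher and 576 lower in radiation against control, in place of 1010 and 800, and 1947 and 888 in combination against control, in place of 1620 and 1372, with 8 and 9 members called as before. Same-numbered libraries showed little shared deviation from their group means (r over 0.1 in 4 of 18 pairs). With 3 libraries a group, this cannot settle whether the numbers mark pairs. With the replicate block, the same numbers of members were called in each comparison (8, 2, 9, 0, 6 and 0), with 1894, 87, 3072, 78, 1518 and 0 genes, in radiation, Complex 1 and combination against control, combination against radiation and against Complex 1, and the interaction. Class sums per macrophage marker moved by less than the spread between libraries with Adgre1, Csf1r and Cd68 alone and, an alternative chosen after seeing the data, without each library in turn.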
